A study of Mus musculus with 7 samples.

Results

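The 10 genes described here encode the enzymes that methylate histone H3 on lysine 9 (H3K9) and the heterochromatin proteins that bind or direct that mark: Ehmt1, Ehmt2, Setdb1, Setdb2, Suv39h1, Suv39h2, Trim28, Cbx1, Cbx3 and Cbx5. They were measured in single fully grown mouse oocytes with and without the gene for SETD1B, an H3K4 methyltransferase. The members were found in the deposited table of 33437 oocyte transcripts as the rows that carried the gene's name on the gene's own strand. This rule found 6 of the 10 genes, with 1 row each: Ehmt1, Ehmt2, Trim28, Cbx1, Cbx3 and Cbx5. The transcripts of the other 4 genes were present, but the table gave them a neighbouring gene's name (Cers2 for Setdb1, Phf11c for Setdb2, Gm14820 for Suv39h1 and Dclre1c for Suv39h2). Those 4 transcripts were located by their position and strand against the GENCODE M21 gene models of GRCm38, and they are marked throughout as found by position.

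All females were C57BL6 by the labels (C57BL/6OlaHsd in the study's methods), 21 days old and homozygous for the floxed Setd1b allele. The 4 Setd1b cKO libraries came from Gdf9-Cre positive females and the 3 Setd1b WT libraries from Gdf9-Cre negative females, with 1 germinal vesicle (GV) oocyte in each library. Gdf9-Cre is driven by an oocyte gene and excises from early folliculogenesis onwards, so the deletion is limited to oocytes and the other ovarian cells keep the floxed alleles. The sources do not say which oocytes came from separate females, so the p-values measure the spread between oocytes, which may be partly technical.

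Methylation of H3K9 is a hallmark of silent chromatin. EHMT2 (G9a) and EHMT1 (GLP) form a heterodimer that places H3K9me1 and H3K9me2, mostly in euchromatin. SETDB1 places H3K9me3 and is brought to retroelements and imprinted loci by TRIM28 (KAP1) together with zinc finger proteins, whereas SUV39H1 and SUV39H2 place H3K9me3 at pericentromeric repeats. The heterochromatin protein 1 family, encoded by Cbx5 (HP1α), Cbx1 (HP1β) and Cbx3 (HP1γ), reads methylated H3K9 through a chromodomain. In growing oocytes, G9a is known to place H3K9me2 and SETDB1 to contribute to retroelement silencing. SETD1B writes the opposing mark of active promoters, H3K4me3, and its complex contains CXXC1, a protein that binds unmethylated CG dinucleotides.

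Because CG content is the sequence property that the CXXC1 subunit reads, the 250 bases upstream of each RefSeq gene start (GRCm38.p6) were counted for CG, a motif that is its own reverse complement. In the study, regions that lost H3K4me3 in the cKO were poor in CG, and regions that gained it were rich in CG. The study links CG content to another H3K4 methyltransferase, MLL2, and SETD1B to gene expression. A high CG count therefore does not mark a gene as a target of SETD1B, and the counts are descriptive. All 10 members matched the RefSeq promoter table. Their windows held 13 to 29 CG, against a median of 6 over the 32851 windows of that length. The lowest count was in Setdb1 and the highest in Cbx3, and 31.5% and 6.78% of all windows held at least as many. These windows follow the RefSeq start nearest to the start of the deposited transcript, where RefSeq gave more than 1 window (Ehmt2, Suv39h1, Cbx3 and Cbx5). Those of Setdb1, Suv39h2 and Cbx3 lay inside the deposited transcript over 249 to 250 of their bases, since the transcript began further upstream. The windows of Ehmt1 and Suv39h1 are shown because these genes had separated genotypes, and that of Setdb1 because it had the fewest CG. They are written 5′ to 3′ on the gene's strand with each CG in capitals. The Ehmt1 window lay at chr2:24919610-24919859, minus strand, with 26 CG, the Suv39h1 window at chrX:8074362-8074611, minus strand, with 25 CG, and the Setdb1 window at chr3:95357203-95357452, minus strand, with 13 CG.
Ehmt1: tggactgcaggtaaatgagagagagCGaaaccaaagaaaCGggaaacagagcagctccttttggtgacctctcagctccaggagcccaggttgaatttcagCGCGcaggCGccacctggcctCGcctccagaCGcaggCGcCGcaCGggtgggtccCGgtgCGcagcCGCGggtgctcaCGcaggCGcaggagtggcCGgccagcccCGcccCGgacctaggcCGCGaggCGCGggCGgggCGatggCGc
Suv39h1: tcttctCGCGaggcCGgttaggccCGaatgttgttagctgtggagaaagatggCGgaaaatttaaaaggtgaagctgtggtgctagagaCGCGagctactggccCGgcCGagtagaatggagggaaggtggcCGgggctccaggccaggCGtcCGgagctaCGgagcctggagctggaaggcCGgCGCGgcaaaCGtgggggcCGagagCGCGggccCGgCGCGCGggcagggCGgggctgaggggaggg
Setdb1: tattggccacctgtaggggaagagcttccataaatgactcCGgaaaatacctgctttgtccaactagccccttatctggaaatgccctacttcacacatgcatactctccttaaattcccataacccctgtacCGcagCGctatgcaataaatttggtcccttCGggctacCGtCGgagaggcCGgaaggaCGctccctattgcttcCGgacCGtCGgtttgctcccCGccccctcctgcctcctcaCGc
Of these CG, 20 of 26 in Ehmt1, 16 of 25 in Suv39h1 and 12 of 13 in Setdb1 lay in the 125 bases nearest the gene start.

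Expression was given as RPM, reads scaled to the mapped reads of the library in units of 1000000 reads, from 8582493 to 12972366 mapped reads per library. Differences are log2 fold changes of RPM + 1, cKO over WT, from 1 limma fit over the 18179 transcripts that reached 1 RPM in 3 or more libraries. This scale understates changes of genes near 1 RPM, and RPM cannot show a change in the total RNA of an oocyte. A transcript was called when its Benjamini-Hochberg adjusted p was under 0.05 and its change over 2-fold. In this fit 1038 transcripts (5.71%) were called, of which 683 (3.76%) were higher and 355 (1.95%) lower in the cKO. The libraries of both genotypes did not overlap, with the cKO higher, for 13.2% of transcripts and, with the cKO lower, for 7.14%. The median log2 fold change of all transcripts was 0.12, and 83.6% to 86.8% of cKO reads but 90.1% to 90.4% of WT reads fell within transcripts. With every library set to a common median transcript (median-centred libraries), 458 transcripts were called higher and 531 lower. Member values on that scale are therefore given wherever the direction or interval changed.

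Replicate 4 of the cKO and replicate 3 of WT lay apart from the other 5 libraries on the second principal component, which held 31.0% of the variance, at −44.7 and −64.3 against −6.52 to 52.6. Oocyte markers were abundant in all libraries: 11 of 12 were found, with a summed level of 11460 to 17777 RPM in cKO and 15920 to 22310 RPM in WT. Of 20 granulosa cell markers, 11 had a mean under 1 RPM, including Amh, Foxl2 and Wt1, and 1 was at 0 in every library. The summed granulosa marker level was 126 to 220 RPM in cKO and 69.3 to 140 RPM in WT, and its part in the results was not tested. Most of this sum came from 3 genes, Cdh2 (mean over all libraries 76.3 RPM), Nr5a2 (34.1 RPM) and Cyp19a1 (25.0 RPM, in a row that shares little of the gene's span). The means of Cdh2 were 101 ± 35.7 RPM (SD, n = 4) in cKO and 43.1 ± 25.7 RPM (SD, n = 3) in WT. Inha, another granulosa cell marker, was detected at 7.03, 11.4, 13.2 and 0.583 RPM in cKO and 0.810, 4.32 and 0 RPM in WT, with overlap. Of the 8 granulosa markers tested, 6 had a log2 fold change above 0 and 2 below. The Setd1b transcript, found by position in a row named Gm26745, measured 8.31, 16.7, 12.8 and 2.68 RPM in cKO and 17.7, 16.3 and 8.61 RPM in WT. These values overlapped (log2 fold change −0.61, SE 0.49, adjusted p = 0.533), and since the row counts the whole transcript and not the floxed part alone, they do not check the labels. The Setd1b difference ran from −0.91 without WT replicate 3 to −0.15 without cKO replicate 4.

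Of the 10 members, 9 passed the filter on low values, and Ehmt2 did not. None of the 9 was called (0 of 5 found by name and 0 of 4 found by position, against the 5.71% of all transcripts), and none had an unadjusted p under 0.05 in limma (21.7% of all transcripts). The voom fit on recovered reads also called 0. Their log2 fold changes ran from −0.46 for Suv39h1 to 0.35 for Setdb2, with a median of −0.04 against 0.12 over all transcripts. Adjusted p-values ran from 0.257 to 0.967. The 95% intervals of all 9 differences lay inside a 2-fold change in either direction, as they did for 42.3% of all transcripts tested. Leaving out 1 library at a time gave between 6 and 9 intervals inside that range. Libraries of both genotypes were separated for 2 of the 9, Ehmt1 and Suv39h1, both lower in cKO (7.14% of all transcripts), and for none with the cKO higher (13.2%).

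**Figure D1:**
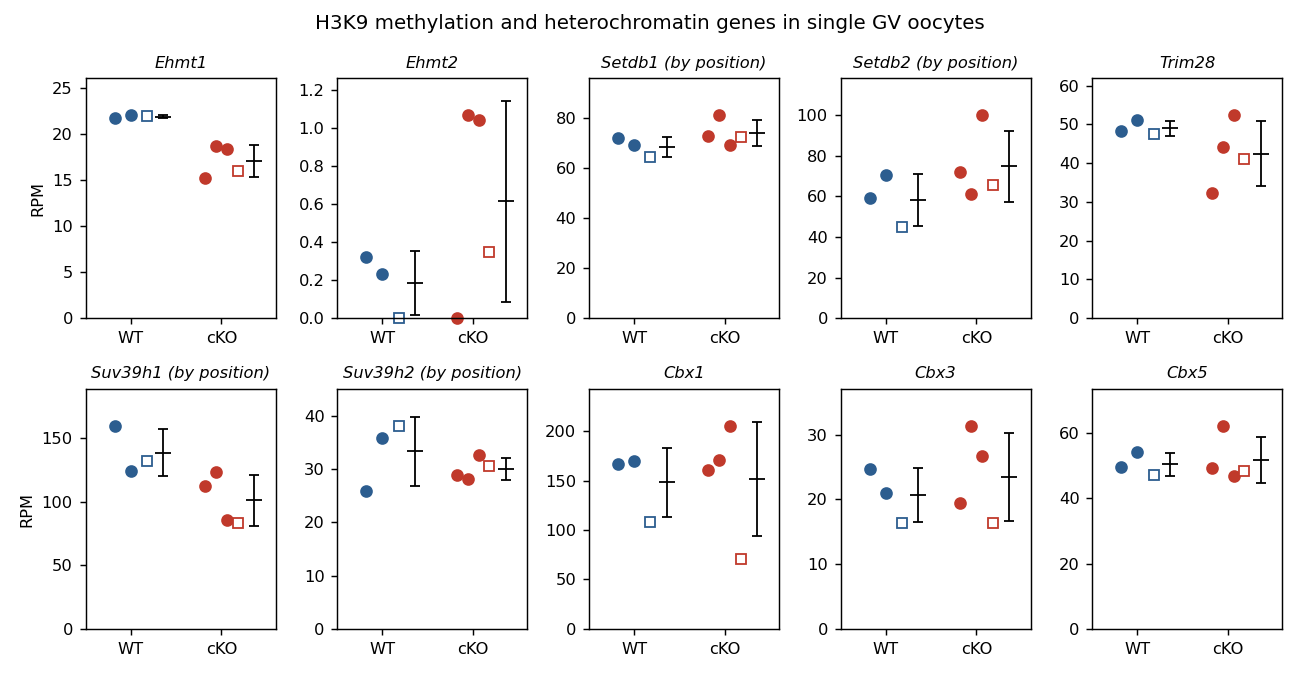
RPM (linear axis from 0) of each of the 10 genes in 3 WT (blue) and 4 Setd1b cKO (red) oocytes, 1 point per library, with the mean and SD beside the points. Open squares mark cKO replicate 4 and WT replicate 3; the cKO points lie below all WT points for Ehmt1 and Suv39h1, and both squares are the lowest of their genotype for Cbx1.

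The G9a and GLP pair was unequal at the RNA level. Ehmt1, which encodes GLP, lies on chromosome 2 at 24790769-24919653 on the minus strand. Its level was 15.2, 18.7, 18.4 and 16.0 RPM in the 4 cKO oocytes and 21.7, 22.0 and 21.9 RPM in the 3 WT oocytes. Every cKO oocyte was below every WT oocyte, and the WT values were nearly equal. The means were 17.1 ± 1.72 RPM (SD, n = 4) in cKO and 21.9 ± 0.172 RPM (SD, n = 3) in WT. The WT coefficient of variation of 0.787% was below the 6.79% that counting alone gives at the mean reads of all 7 libraries. The closeness of the WT values is therefore finer than the depth can resolve. The log2 fold change was −0.35 (SE 0.21, 95% interval −0.81 to 0.12, adjusted p = 0.388 in limma), which did not pass the test. On the median-centred scale it was −0.50 (interval −0.96 to −0.05, adjusted p = 0.194).

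Ehmt2, which encodes the catalytic partner G9a (chromosome 17, 34898465-34914051, plus strand), was hardly detected. It had 0, 13, 12 and 3 reads in cKO and 4, 3 and 0 reads in WT, or 0, 1.07, 1.04 and 0.350 RPM against 0.324, 0.231 and 0 RPM. These are counts at which 3 reads, the limit that a count of 0 allows, correspond to 0.231 to 0.350 RPM, and the genotypes overlapped. Only 2 libraries reached 1 RPM, so no test was made in the main fit. The ratio of Ehmt1 to Ehmt2 per exon length had no value in cKO replicate 1 and WT replicate 3, where Ehmt2 had no read. It was 11.8, 11.9 and 30.9 in the other cKO oocytes and 45.3 and 64.5 in the other WT oocytes, each resting on 3 to 13 Ehmt2 reads.

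Setdb1 encodes the H3K9me3 methyltransferase recruited by TRIM28. Its transcript, found by position (chromosome 3, 95323504-95357451, minus strand), measured 73.0, 81.4, 69.3 and 72.7 RPM in cKO and 72.0, 69.5 and 64.4 RPM in WT. The genotypes overlapped, and the coefficients of variation were 6.92% in cKO and 5.67% in WT, against 3.53% from counting. The log2 fold change was 0.11 (SE 0.19, interval −0.31 to 0.52, adjusted p = 0.802 in limma), and −0.05 with median-centred libraries.

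Setdb2 encodes a related protein with a SET domain. Its transcript, found by position on chromosome 14 (59378729-59440936, minus strand), also spans the 14549 bases of Phf11c, so its value may hold reads of both genes. It measured 71.9, 61.1, 99.96 and 65.7 RPM in cKO and 59.0, 70.7 and 44.9 RPM in WT. Replicate 3 of the cKO was the highest and replicate 3 of WT the lowest, with overlap between the genotypes. The difference of 0.35 (SE 0.25, interval −0.19 to 0.89, limma adjusted p = 0.463) was the largest positive one among the members and did not pass the test.

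Trim28, the corepressor that links zinc finger proteins to SETDB1, lies on chromosome 7 (13024152-13031035, plus strand). It measured 32.3, 44.1, 52.4 and 41.0 RPM in cKO and 48.2, 51.2 and 47.6 RPM in WT. Replicate 3 of the cKO exceeded every WT oocyte while the other 3 cKO oocytes lay below them. The log2 fold change was −0.22 (SE 0.22, interval −0.71 to 0.26, adjusted p = 0.624 in limma). A pair of minus-strand transcripts near the gene carried its name in the table, with means of at most 5.02 RPM, and were left out because their strand was not that of Trim28. Per exon length, the ratio of Setdb1 to Trim28 was 1.09 ± 0.234 (SD, n = 4) in cKO and 0.850 ± 0.0488 (SD, n = 3) in WT, and these ratios overlapped.

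The SUV39H pair gave the largest negative difference, in Suv39h1, whose product places H3K9me3 at pericentromeric repeats. Its transcript, found by position (chromosome X, 8049579-8074313, minus strand), measured 112, 123, 85.2 and 83.3 RPM in cKO and 160, 124 and 132 RPM in WT. This row shares 13143 bases with the annotated gene, 0.522 of their joint span, and its other bases lie beyond the gene. Its value may thus hold reads from outside Suv39h1. The highest cKO oocyte lay just under the lowest WT oocyte. The means were 101 ± 19.9 RPM (SD, n = 4) and 138 ± 18.6 RPM (SD, n = 3), with a log2 fold change of −0.46 (SE 0.22, interval −0.95 to 0.03, adjusted p = 0.257 in limma). On the median-centred scale it was −0.62, the interval of −1.11 to −0.13 reached past a 2-fold decrease, and the adjusted p was 0.135.

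A plus-strand transcript that the table names Gata1 (chromosome X, 7951843-8072959) overlaps the Suv39h1 transcript over 23381 bases. It measured 302, 325, 244 and 245 RPM in cKO and 433, 348 and 368 RPM in WT. It too was lower in every cKO oocyte than in any WT oocyte (7.14% of all transcripts). Its log2 fold change was the same, −0.46 (adjusted p = 0.228 in limma, SE 0.21). Within a library, the Suv39h1 transcript held between 0.341 and 0.380 of the level of the overlapping one, in all 7 libraries. The library kit did not mark strand, and use of strand in the counting was not stated, so the reads of both transcripts cannot be told apart where they overlap.

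Suv39h2, the paralogue known for its role in the germline, was also found by position (chromosome 2, 3450373-3475414, minus strand). It measured 28.9, 28.1, 32.7 and 30.5 RPM in cKO and 26.0, 35.8 and 38.2 RPM in WT. The cKO values were close together and lay within the wider WT range. The difference was −0.13 (SE 0.22, interval −0.61 to 0.35, limma adjusted p = 0.797). The only row that carries the name Suv39h2 is on the plus strand and had 0 reads in all 7 libraries.

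The plus-strand transcript of Dclre1c, a nuclease gene of DNA repair, overlaps Suv39h2 over 13758 bases and behaved otherwise. It measured 19.99, 20.01, 23.6 and 15.8 RPM in cKO and 12.0, 12.1 and 9.73 RPM in WT, without overlap between the genotypes (13.2% of all transcripts, cKO higher). Its log2 fold change was 0.76 (adjusted p = 0.0863 in limma, SE 0.24), which did not pass the test. Reads from these overlapping transcripts could likewise not be separated by strand. Per exon length, the ratio of Suv39h2 to Suv39h1 was 0.369 ± 0.0932 (SD, n = 4) in cKO and 0.295 ± 0.0871 (SD, n = 3) in WT, with overlap.

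**Figure D2:**
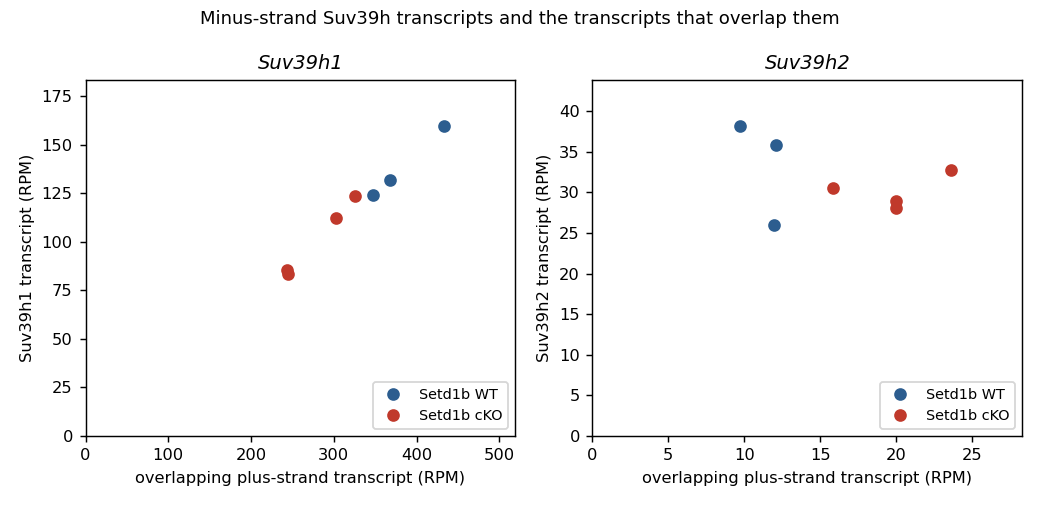
RPM of the Suv39h1 (left) and Suv39h2 (right) transcripts against RPM of the plus-strand transcript that overlaps each, 1 point per library, blue for WT and red for cKO. The Suv39h1 points keep a ratio of 0.341 to 0.380, whereas the Suv39h2 points stay between 26.0 and 38.2 RPM while the overlapping transcript is higher in every cKO library.

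None of the 3 HP1 genes was called (5.71% of all transcripts were). Cbx1 (HP1β; chromosome 11, 96789078-96810658, plus strand) measured 161, 171, 206 and 70.3 RPM in cKO and 167, 170 and 108 RPM in WT. The lowest oocyte of each genotype was the one that stood apart on the second principal component, cKO replicate 4 and WT replicate 3. The means of 152 ± 57.7 RPM (SD, n = 4) and 148 ± 34.8 RPM (SD, n = 3) gave a log2 fold change of −0.04 (SE 0.35, interval −0.82 to 0.73, adjusted p = 0.967 in limma). Without both of these libraries it was 0.08, with an adjusted p of 0.834. The coefficients of variation were 38.0% in cKO and 23.4% in WT.

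Cbx3 (HP1γ; chromosome 6, 51470360-51483704, plus strand) measured 19.4, 31.4, 26.6 and 16.3 RPM in cKO and 24.6, 21.0 and 16.3 RPM in WT. Its lowest values were again in cKO replicate 4 and WT replicate 3, and the genotypes overlapped. The log2 fold change was 0.15 (SE 0.28, interval −0.46 to 0.76, adjusted p = 0.816 in limma), and −0.01 with median-centred libraries.

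Cbx5 (HP1α; chromosome 15, 103191460-103239983, minus strand) measured 49.2, 62.2, 46.8 and 48.5 RPM in cKO and 49.6, 54.3 and 47.2 RPM in WT. Apart from cKO replicate 2 the oocytes of both genotypes lay within the same narrow range. The log2 fold change was 0.03 (SE 0.20, interval −0.42 to 0.48, adjusted p = 0.959 in limma), and −0.13 with median-centred libraries. Per exon length, the ratio of Cbx5 to Cbx1 was 0.188 ± 0.0964 (SD, n = 4) in cKO and 0.166 ± 0.0353 (SD, n = 3) in WT, and it was highest in cKO replicate 4 (0.327) and WT replicate 3 (0.207). The ratio of Cbx3 to Cbx1 was 0.119 ± 0.0371 (SD, n = 4) and 0.1002 ± 0.0103 (SD, n = 3), with overlap.

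**Figure D3:**
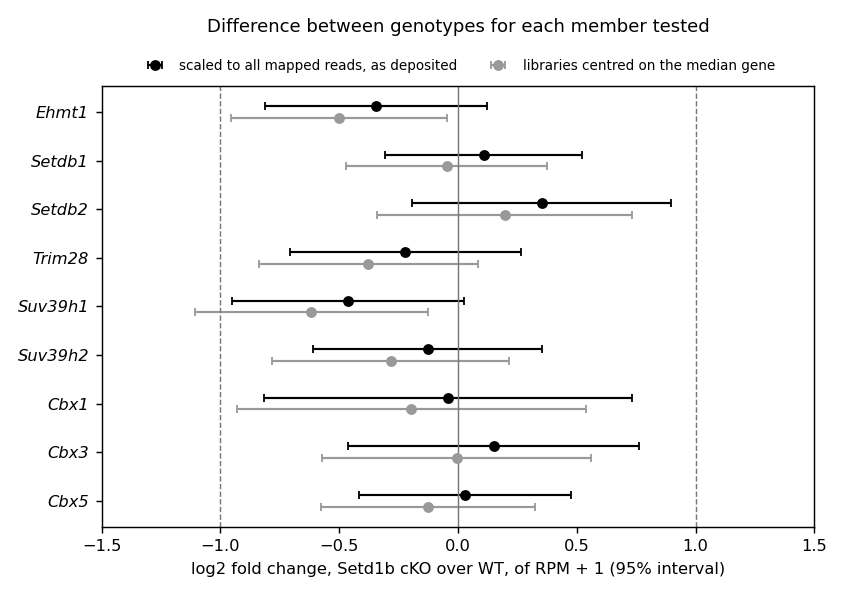
Log2 fold change (cKO over WT, of RPM + 1) with its 95% interval for the 9 genes tested, with the deposited scaling (black) and with median-centred libraries (grey); dashed lines mark a 2-fold change. All 9 black intervals cross 0 and stay inside the dashed lines, while the grey intervals of Ehmt1 and Suv39h1 lie below 0 and that of Suv39h1 passes the lower dashed line.

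To order the genes by level, RPM were divided by the annotated exon length in kb, and the mean over all 7 libraries was taken. Cbx1 was highest at 35.2 ± 10.7 RPM per kb (SD, n = 7), above Suv39h1 in all 7 libraries. Suv39h1 followed at 22.2 and Setdb2 at 16.7 RPM per kb. Suv39h1 exceeded Setdb2 in only 5 of 7 libraries, and both rows hold reads that may belong to an overlapping or neighbouring gene. Trim28 (10.9 RPM per kb) and Setdb1 (10.5 RPM per kb) could not be ordered, since Trim28 was above Setdb1 in only 4 of 7 libraries, 1 of 4 in cKO and 3 of 3 in WT. The Trim28 transcript covers 0.216 of the joint span with a longer gene model, whose exons set its length. Below them came Suv39h2 at 7.14 RPM per kb, Cbx5 at 5.67 and Cbx3 at 3.71. Suv39h2 exceeded Cbx5 in 6 libraries and Cbx5 exceeded Cbx3 in all 7. Ehmt1, at 2.36 RPM per kb, and Ehmt2, at 0.0786 RPM per kb, were the lowest in every library.

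Without the length correction, the mean RPM of Cbx1 was higher than that of 93.8% of the transcripts tested, and that of Ehmt1 higher than that of 65.9%. The other tested members fell between these. The members were thus among the better measured transcripts of the table, apart from Ehmt2, whose mean was below that of every transcript tested.

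**Figure D4:**
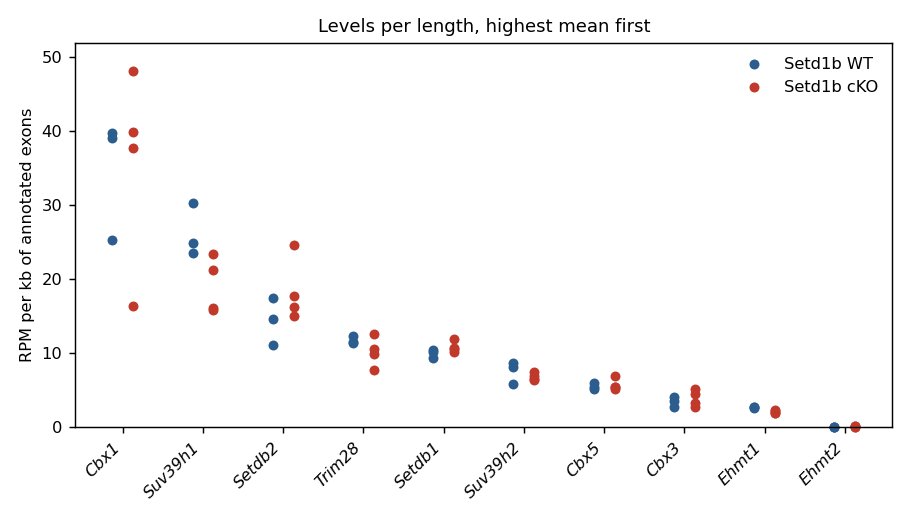
RPM per kb of annotated exons (linear axis from 0) for the 10 genes, ordered by their mean over the 7 libraries, with 1 point per library in blue for WT and red for cKO. Cbx1 has the highest levels and the widest spread, from 16.4 to 48.1 RPM per kb, and Ehmt2 stays below 0.2 RPM per kb.

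Another 41 genes were listed that act on or with the members: enzymes that remove H3K9 methylation, partners of G9a and GLP, partners of SETDB1 and TRIM28, and proteins that bind HP1 or maintain heterochromatin. Of these, 40 had a transcript on their own strand (31 by name, 9 by position), and 37 passed the filter on low values. Of these 37, 1 gene was called higher in the cKO (3.76% of all transcripts) and 0 lower (1.95%). Unadjusted p-values were under 0.05 for 2 of them (21.7% of all transcripts), voom called 0, and the middle gene had a log2 fold change of −0.08 against 0.12 over all transcripts. Libraries of both genotypes were separated for 3 with the cKO higher (Mbd1, Kmt5b and Prdm2), against 13.2% of all transcripts, and for 2 with the cKO lower (Kdm4a and Chaf1a), against 7.14%.

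Among the 3 lists of demethylases and of partners of G9a, GLP, SETDB1 and TRIM28, no gene had an unadjusted p under 0.05 in limma. None of the 8 H3K9 demethylases tested of 10 listed was called (5.71% of all transcripts were), and 4 lay above 0 and 4 below. The smallest adjusted p belonged to Kdm7a, a demethylase of H3K9 and H3K27 found by position, with a log2 fold change of 0.32 (adjusted p = 0.445 in limma, SE 0.21). The Kdm7a difference ran from 0.19 without WT replicate 3 to 0.42 without WT replicate 2, and was 0.16 with median-centred libraries. Kdm4b, an H3K9me3 demethylase, was low, with 0.891, 2.14, 1.92 and 0.117 RPM in cKO and 4.21, 0.771 and 2.71 RPM in WT, and differed by −0.63 with an interval of −1.64 to 0.38. This value ran from −1.07 without WT replicate 2 to −0.29 without WT replicate 1, and was −0.33 without cKO replicate 4. Its relative Kdm4a was at 4.95, 5.02, 4.44 and 4.31 RPM in cKO and 7.21, 5.16 and 5.33 RPM in WT, without overlap. The log2 fold change of Kdm4a was −0.27 (SE 0.26, limma adjusted p = 0.607), and ran from −0.35 without WT replicate 2 to −0.14 without WT replicate 1.

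Of the 4 partners of G9a and GLP tested of 5 listed, none was called (5.71% of all transcripts were). Cdyl and Cdyl2 encode related chromodomain corepressors, and their values lay on opposite sides of 0. Cdyl2 measured 10.8, 11.3, 9.93 and 5.94 RPM in cKO and 8.99, 5.40 and 2.81 RPM in WT (log2 fold change 0.71, adjusted p = 0.287 in limma, SE 0.36). Cdyl, found by position, measured 17.4, 21.7, 15.6 and 10.3 RPM in cKO and 25.5, 20.7 and 22.5 RPM in WT (log2 fold change −0.51, adjusted p = 0.310 in limma, SE 0.27). Both genes overlapped between the genotypes, and the Cdyl2 difference ran from 0.36 without WT replicate 3 to 1.05 without WT replicate 1. That of Cdyl ran from −0.66 without cKO replicate 2 to −0.32 without cKO replicate 4. Zfp644, a zinc finger partner of the complex found by position, differed by 0.18. This ran from 0.08 without cKO replicate 3 to 0.24 without cKO replicate 4, and was 0.02 with median-centred libraries.

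All 11 partners of SETDB1 and TRIM28 were tested and none was called (5.71% of all transcripts were). Mbd1, a methyl-CG binding protein that associates with SETDB1, measured 7.32, 6.84, 8.18 and 5.13 RPM in cKO and 4.70, 3.24 and 4.77 RPM in WT. Every cKO oocyte was above every WT oocyte, with a log2 fold change of 0.59 (adjusted p = 0.247 in limma, SE 0.27). Morc2a, an ATPase that acts with the HUSH silencing complex and was found by position, differed by −0.37 (limma adjusted p = 0.512). Pphln1, a HUSH subunit, differed by 0.22 (limma adjusted p = 0.576). Morc2a ran from −0.51 without cKO replicate 3 to −0.23 without cKO replicate 4. Pphln1 ran from 0.15 without cKO replicate 2 to 0.28 without cKO replicate 4, and was 0.07 with median-centred libraries.

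Among the HP1 partners and heterochromatin maintenance genes, 14 of 15 were tested and 1 was called (5.71% of all transcripts were). This was Kmt5b (chromosome 19, 3767421-3818303, plus strand), which encodes the H4K20 methyltransferase SUV420H1. Another transcript overlaps its row, and an opposite-strand row also carries its name. Reads of overlapping transcripts could not be separated by strand here either. Kmt5b measured 8.71, 8.40, 6.27 and 7.81 RPM in cKO and 2.59, 4.47 and 2.43 RPM in WT. The lowest cKO oocyte lay above the highest WT oocyte. The means of 7.80 ± 1.08 RPM (SD, n = 4) and 3.17 ± 1.13 RPM (SD, n = 3) gave a log2 fold change of 1.10 (SE 0.28, interval 0.48 to 1.72, adjusted p = 0.0446 in limma). The call lay close to both thresholds: it was lost on the median-centred scale (0.95, adjusted p = 0.0856), and in each of the 7 fits that left out 1 library, where the log2 fold change ran from 0.98 to 1.32 and the adjusted p from 0.0515 to 0.160.

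**Figure D5:**
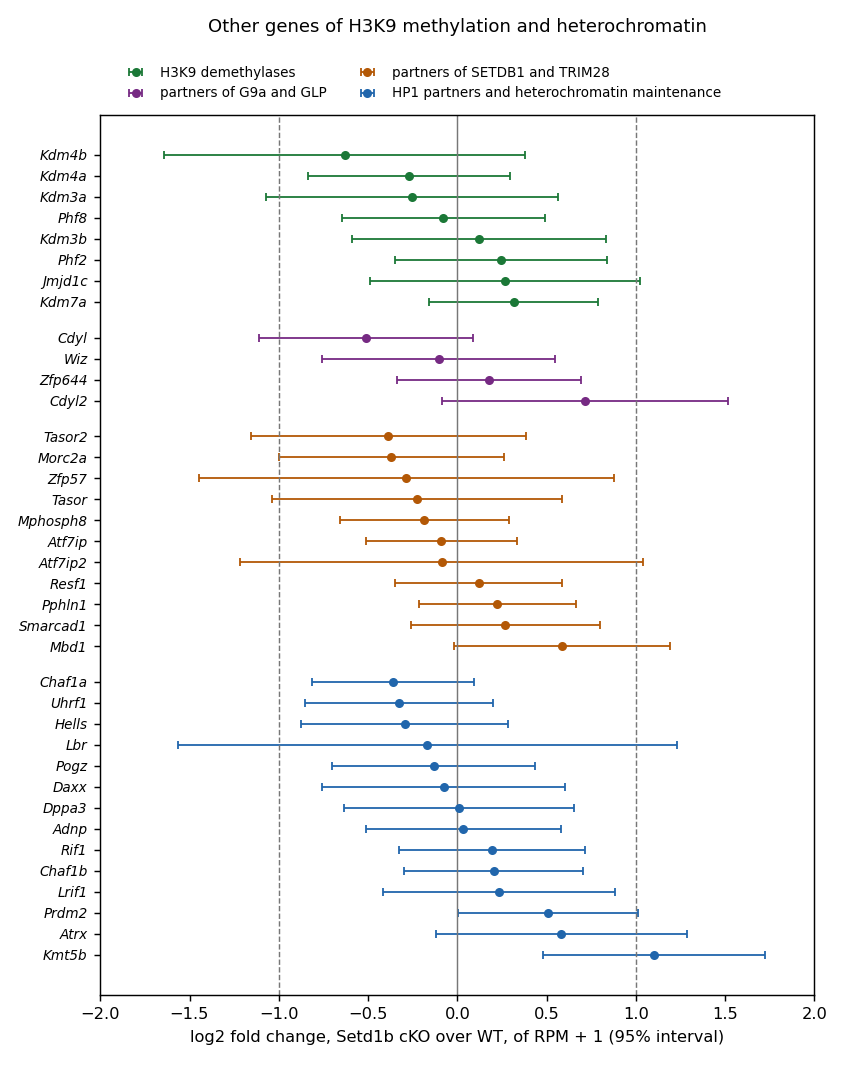
Log2 fold change (cKO over WT, of RPM + 1) with its 95% interval for the 37 other genes tested, grouped by list and colour; dashed lines mark a 2-fold change. Kmt5b is the only point beyond a dashed line, and its interval of 0.48 to 1.72 does not cross 0.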

How the data were processed

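The authors lysed single GV oocytes, used the SMARTer Ultra Low RNA chemistry for cDNA, prepared NEBNext libraries and sequenced single reads. Per the study's methods, reads were trimmed with trim galore, mapped with Hisat to GRCm38 along known splice sites, filtered on mapping quality and quantified in SeqMonk over oocyte transcripts with merged isoforms. The submitters' processing notes also name bcl2fastq 1.8.4 and featureCounts 1.4.4. The deposited values are log2 RPM per transcript and library, in 1 table with no pooled columns. Library preparation failed for 1 further WT oocyte, which was not analysed here. The methods also allow heterozygous Cre positive females as controls, whereas the labels of the 3 WT libraries give Gdf9-Cre negative.

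Values were returned to RPM, with 0 reads set to 0. Since RPM were whole multiples of 1 read (99.99% to 100% of values within 0.05 of a read), reads per library were recovered. Each log2(RPM + 1) was fitted with limma 3.58.1 in R 4.3.3 (eBayes with intensity trend) on all 7 libraries and 18179 transcripts that reached 1 RPM in 3 or more libraries. P-values were two-sided and adjusted by Benjamini-Hochberg over all of them. The code was checked on simulated reads, drawn around the WT means with the same relative spread for every transcript. There, 196 of 200 transcripts changed 4-fold were recovered with 7 false calls among 17224 tested. Real oocytes differed more for some transcripts and changes near 2-fold were not simulated, so this recovery does not give the power for the members. In the table, 30.0% of named rows carried a gene of the opposite strand. Members without a row of their own name were taken from the same-strand row sharing at least 0.5 of the joint span with the gene. Counting error was taken from the recovered reads. Intervals and limits from counts cover counting error only, since the cDNA was amplified without molecular identifiers.

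Named were all 10 members, Setd1b, and of each other list the genes past the threshold or otherwise at most the 3 with the smallest adjusted p. Transcripts overlapping a member, and genes whose libraries were separated, were named after their values were seen. The members and lists were chosen with earlier results of these data known. Same-numbered cKO and WT libraries had correlated deviations of 0.19, 0.29 and −0.13, so the numbers were not treated as pairs. Alternatives were other pseudocounts, filters, scalings, limma settings, voom on recovered reads, a replicate block and libraries left out. The choice to leave out cKO replicate 4 with WT replicate 3, and the location of members by position, were added after seeing the data.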

Additional observations from a re-analysis of the deposited data

Results flagged for a closer look

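Among the 25 cKO groups of 4 values examined, 1 library stood apart from the other 3 by Dixon's ratio of its gap to the whole range, above the 95% critical value, in 2 genes. Chance alone gives this in about 1 of 20 groups. Cbx5 had a ratio of 0.847, with cKO replicate 2 at 62.2 RPM against 46.8 to 49.2 RPM in the other 3. Kdm7a had a ratio of 0.845, with cKO replicate 1 at 45.5 RPM against 57.6 to 59.8 RPM. The WT group of 3 was too small for this comparison.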

How the results depend on the processing

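The number of members called was 0 in all 23 alternatives, both for those found by name and for those found by position. The 6 members found by name had 1 same-strand row each, so summing rows gave no separate value. Ehmt1, Setdb2, Suv39h1, Suv39h2 and Trim28 kept their direction in all 22 fits. Ehmt1 ran from −0.50 to −0.27 (adjusted p 0.194 to 0.583) and Suv39h1 from −0.62 to −0.36 (adjusted p 0.135 to 0.551). Setdb2 ran from 0.18 without WT replicate 3 to 0.50 without WT replicate 2, Suv39h2 from −0.29 without WT replicate 1 to −0.024 without WT replicate 3, and Trim28 from −0.38 with median centring to −0.10 without cKO replicate 1.

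Small differences turned sign. Setdb1 was −0.047 with median centring and −0.029 with median-of-ratios scaling. Cbx3 was −0.0056 with median centring and ran from −0.0033 to 0.30 with 1 library left out. Cbx5 was −0.13 with median centring and −0.11 with median-of-ratios scaling, and from −0.061 to 0.084 with 1 library left out. Cbx1 was 0.038 when scaled to reads within transcripts, 0.046 with library quality weights, 0.081 without cKO replicate 4 and WT replicate 3, and from −0.25 to 0.29 with 1 library left out. With the replicate block, which leaves cKO replicate 4 out of the contrast, Cbx1 was 0.29 and no call among the members changed. The cause was not tested.

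Kmt5b, the 1 call among the other pathway genes, was lost in 14 of 22 fits (adjusted p 0.0316 to 0.160 over all), so the count was 0 with a pseudocount of 5 RPM, no filter, median centring, quantile normalisation, median-of-ratios scaling, voom, any 1 library left out (0 to 0), and cKO replicate 4 and WT replicate 3 both left out. Over all transcripts the 1038 calls became 553 with a pseudocount of 5 RPM, 649 without a filter, 1751 with quality weights, and 280 to 1287 with 1 library left out (613 without cKO replicate 1, 560 without cKO replicate 3, 372 without WT replicate 1 and 280 without WT replicate 2). The split of higher to lower calls was 428 to 442 with quantile normalisation, 512 to 490 with median-of-ratios scaling and 836 to 310 with reads within transcripts.

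At these depths counting gave coefficients of variation of 2.41% to 6.79% for the tested members, against up to 38.0% between oocytes. Ehmt2, with at most 13 reads in a library, was fitted only without the filter, at 0.39 (interval −0.20 to 0.98, adjusted p = 0.518), on a scale that understates changes at this level.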

Other observations

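Cbx5 and Cbx3 each begin head to head with a gene of an RNA-binding hnRNP protein, noticed after the values were seen and not tested as pairs. Hnrnpa1 (chromosome 15, 103239944-103246664, plus strand) shares 40 bases with the Cbx5 transcript. It measured 182, 212, 174 and 184 RPM in cKO and 316, 283 and 275 RPM in WT, without overlap (log2 fold change −0.63, SE 0.19, limma adjusted p = 0.0786), which did not pass the test. The level of Cbx5 relative to Hnrnpa1 was 0.263 to 0.294 in cKO and 0.157 to 0.192 in WT. The separation of this ratio is that of Hnrnpa1, since the Cbx5 libraries overlapped (log2 fold change 0.03). Hnrnpa2b1 (chromosome 6, 51461124-51470490, minus strand) shares 131 bases with Cbx3. It measured 126, 121, 139 and 125 RPM in cKO and 162, 149 and 166 RPM in WT, also without overlap (log2 fold change −0.32, SE 0.18, limma adjusted p = 0.364). The level of Cbx3 relative to Hnrnpa2b1 was 0.131 to 0.259 in cKO and 0.0983 to 0.152 in WT, which overlapped.

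Of 11 oocyte markers tested, 10 were below 0, with a median log2 fold change of −0.35, 0 called and 1 at an unadjusted p under 0.05 in limma (21.7% of all transcripts). Of 8 granulosa cell markers tested, 6 were above 0, with a median of 0.39, 0 called and 2 at an unadjusted p under 0.05 in limma. Over all transcripts 5.71% were called and 21.7% had an unadjusted p under 0.05.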
